A study of Mus musculus with 51 samples.

Results

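The matrix metalloproteinases (Mmp), the ADAMTS proteases with their non-catalytic ADAMTS-like relatives (Adamts, Adamtsl) and the tissue inhibitors of metalloproteinases (Timp) were examined across mouse stromal lines that differ in how well they support hematopoietic stem and progenitor cells. Members were all genes with symbols of the forms Mmp, Adamts, Adamtsl or Timp plus a number that were paired alone with a probe set, and the probe set with the highest mean was used for each. This gave 49 of the 19938 genes measured: 22 Mmp, 18 Adamts, 5 Adamtsl and 4 Timp genes, covered by 74 probe sets. Mmp15 and Adamts2 were not analysed here.

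These are zinc-dependent proteases that act outside the cell or at its surface. Most are made as inactive precursors, opened by furin, plasmin or each other, and held in check by the TIMP proteins. Between them they cut collagens, proteoglycans and other matrix proteins, and release or destroy growth factors, membrane-bound ligands and chemokines. In hematopoietic tissues they are known for the release of soluble Kit ligand and the cleavage of Cxcl12, and for the movement of blood cells through matrix. Stromal cells are among the sources of both the enzymes and their inhibitors.

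The arrays measured RNA from 17 groups of 3 arrays, and the study asked which genes go with the ability of stroma to support hematopoietic cells in culture. Confluent cultures came from 13 lines, each described in the labels as a clone except OP9, which is called a line. UG26.1B6 (supportive), UG26.3B5 (less-supportive), AM14-1C4 and AM30-3F4 (both supportive) came from the aorta-gonad-mesonephros region (AGM) of (CBAxC57BL/10)F1 embryos at embryonic day 11. AFT024 and 2012 (supportive) and BFC012, AFT011 and BFC (non-supportive) came from C57BL/6 fetal liver (FL) at embryonic day 14.5, and the label BFC carries no clone number. BFC was treated as a line of its own, though its label does not tell whether it is separate from BFC012. BMC9 (supportive) and BMC10 (less-supportive) came from bone marrow (BM) of adult H2ts6 mice, 14F1-1 (supportive) from adult BALB/c bone marrow, and OP9 (supportive) from fetal calvaria of (C57BL/6xC3H)F2-op/op mice. Cells grew at 33 °C, except that all 3 arrays of 14F1-1 and replicates 1 and 2 of OP9 came from cultures at 37 °C. In a second experiment AFT024 and BFC012 were grown alone or with bone marrow KLS cells (c-Kit+ Sca1+ Lin-, a fraction rich in stem and progenitor cells), and CD45-negative stroma was sorted after 4 days. Each support group rests on few clones. The labels do not say whether replicates were separate cultures, so the spread behind each p-value may be technical. In bulk RNA, fewer expressing cells and less RNA per cell cannot be told apart.

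The values are deposited log2 signals, normalized apart in 4 sets: the UG26, AFT024, BFC012 and BMC lines, OP9 and BFC, the sorted stroma, and the 14F1-1, 2012, AFT011 and AM lines. Levels were compared within a set only, and a difference of 1 on the log2 scale is a doubling of signal. Correlations of an array with the other arrays of its group were 0.992 or more for confluent lines, but 0.972 for replicate 1 of sorted BFC012 alone, 0.976 for replicate 1 of sorted AFT024 alone and 0.977 for replicate 1 of sorted AFT024 with KLS cells. The 10 stromal markers averaged between 6.34 and 10.41 over all arrays, and the 13 hematopoietic markers between 3.94 and 6.27. In 14F1-1, 1 stromal marker was higher than in 2012 and 5 were lower, the lower ones including Cxcl12, the chemokine that holds stem cells in marrow (-3.92, adjusted p = 3.68e-18). Of 9 mesothelial or epithelial markers, 5 were lower and 2 higher in AFT024 than in BFC012. Their mean lay between 6.86 and 6.98 on AFT024 arrays and between 7.80 and 8.07 on BFC012 arrays, and no array of one line reached the other. Of the same 9 markers, 4 were lower and 0 higher in OP9 than in BFC (array means 4.83 to 4.95 and 5.35 to 5.45), and 2 were lower and 0 higher in BMC9 than in BMC10. Of the 10 stromal markers, 7 were higher and 0 lower in BMC9 than in BMC10, with a median difference of 0.93 beside 0.028 over all genes and array means of 9.96 to 10.41 and 8.63 to 9.09. In OP9, 6 were higher and 2 lower than in BFC (7.21 to 7.30 and 6.34 to 6.4), in AM14-1C4, 6 were higher and 2 lower than in AM30-3F4, and in AFT024, 5 were higher and 2 lower than in BFC012. In the line 2012, 4 were higher and 1 lower than in AFT011, and in UG26.1B6, 3 were higher and 0 lower than in UG26.3B5. Of the hematopoietic markers, Lyz2 and Cd48 were higher in OP9 than in BFC (0.44 and 0.30), and Lyz2, a lysozyme of myeloid cells, in AM14-1C4 than in AM30-3F4 by 4.00 (SE 0.12, adjusted p = 7.34e-23), where the leukocyte gene Ptprc gave -0.071 (adjusted p = 0.72). The part of these markers in the differences of the protease genes was not tested.

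The study compared pairs of lines that differ in support, and the protease and inhibitor genes differed most often between AFT024 and BFC012. A gene was called past the threshold at an adjusted p below 0.05 over all 19938 genes. Between AFT024 and BFC012, 22 of 49 members (44.9%) were past it, beside 28.5% of all genes; 12 were higher and 10 lower in AFT024, beside 15.6% and 12.9%. Between UG26.1B6 and UG26.3B5 there were 9 (18.4%), beside 8.56% of all genes, 8 higher and 1 lower (beside 4.34% and 4.22%). Between BMC9 and BMC10 there were 10 (20.4%), beside 15.5%, 8 higher and 2 lower (beside 7.28% and 8.18%). Of the 5 pairs, the AGM and bone marrow pairs had the fewest members past it and also the smallest shares of all genes. Their second lines are labelled less-supportive rather than non-supportive. Tissue and mouse strain also differ between the pairs, and the cause was not tested. For 2012 against AFT011 there were 15 (30.6%), beside 27.6%, 6 higher and 9 lower (beside 13.4% and 14.1%). For OP9 against BFC there were 19 (38.8%), beside 34.4%, 12 higher and 7 lower (beside 17.5% and 16.9%). OP9 and BFC also differ in tissue and mouse strain, and most OP9 arrays in culture temperature. In every OP9 against BFC difference given here these cannot be told apart from support. In the BMC, 2012 and OP9 pairs the members' share lay near that of all genes. No member was past the threshold in all 5 pairs in one direction. Of the 49, 17 were past it in 0 pairs, 5 were past it in one direction in at least 3 pairs and never in the other, and 9 were higher in some pairs and lower in others. Such counts over the 5 pairs were not made for all genes, so they do not set the members apart from other genes. In no set did 20 of the 49 have a group mean as high as the median gene of the set. For these, signal near background limits what the absence of a call can show. The differences between pairs were tested in the same fit, a test added after the data were seen. The AGM and AFT024 pairs differed from each other in 18 members, beside 24% of all genes, and the AGM and BMC pairs in 9, beside 12.6%. The AFT024 pair differed from the BMC pair in 18 members, beside 25.5%, and from the 2012 pair in 25, beside 29.2%.

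**Figure D1:**
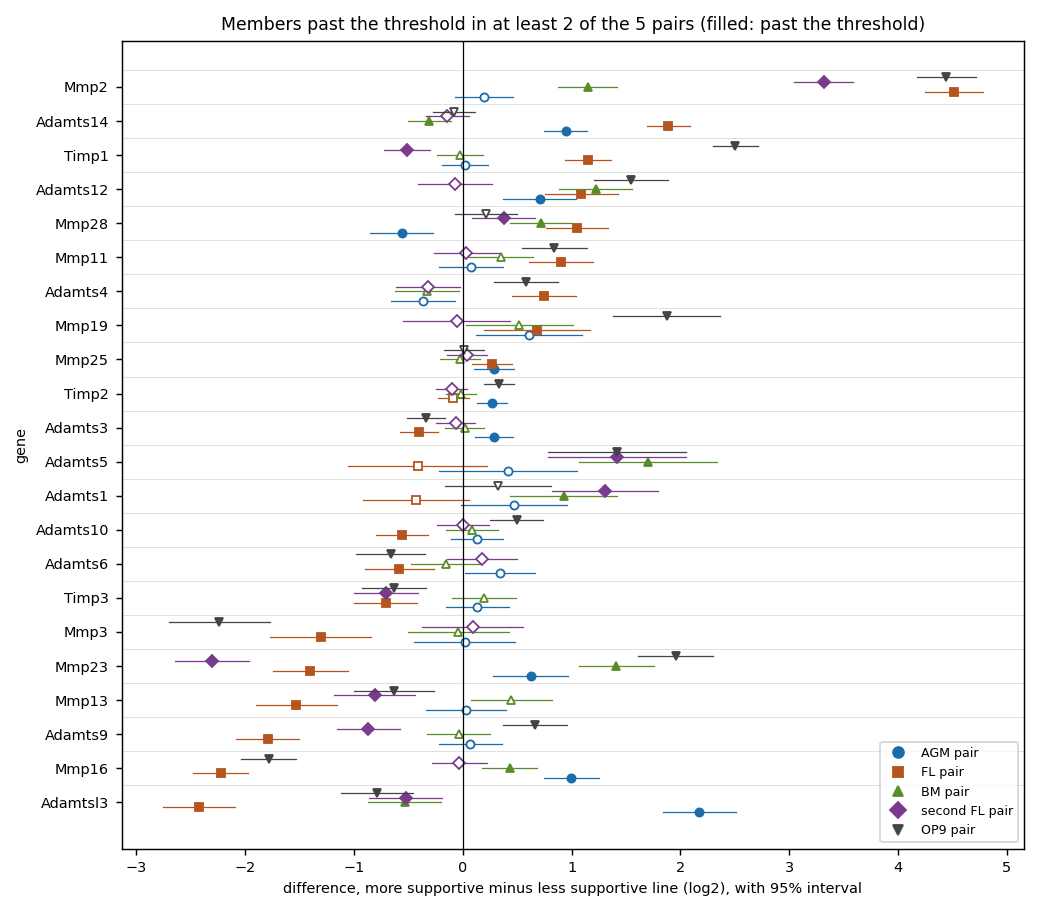
Difference in log2 signal (x axis, more supportive minus less supportive line, with 95% intervals) for the 22 members past the threshold in at least 2 of 5 pairs (y axis); filled symbols passed it. Mmp2 sits to the right in 4 pairs, Adamtsl3 lies far right in the AGM pair and left in the other 4, and Mmp23 is split 3 against 2.

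The gelatinase Mmp2, which cuts denatured collagen and basement membrane collagen, showed the largest difference of any member between AFT024 and BFC012. Its signal on the AFT024 arrays was 11.52, 11.24 and 11.18, against 6.73, 6.87 and 6.81 on the BFC012 arrays. In the second fetal liver pair it was 10.40, 10.39 and 10.35 in 2012 and 7.07, 6.95 and 7.17 in AFT011. OP9 arrays read 9.10, 9.16 and 9.25 and BFC arrays 4.87, 4.64 and 4.67. In all these pairs every array of the supportive line stood more than 3 units above every array of the non-supportive line. The differences were 4.51 (SE 0.13, adjusted p = 4.68e-24), 3.32 (SE 0.13, adjusted p = 4.11e-20) and 4.44 (SE 0.13, adjusted p = 8.62e-24). In bone marrow both lines were high, with 12.33, 12.02 and 12.01 in BMC9 and 11.15, 11.21 and 10.55 in BMC10, without overlap and with a difference of 1.15 (SE 0.13, adjusted p = 4.08e-08).

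Mmp2 did not pass the threshold in the AGM pair. UG26.1B6 arrays read 7.20, 7.70 and 7.66 and UG26.3B5 arrays 7.10, 7.45 and 7.43, so the groups overlapped and the lines sat near the non-supportive BFC012 of the same set. The difference was 0.19, with a 95% interval from -0.076 to 0.46 (adjusted p = 0.447). In the set that holds both AM lines, AM14-1C4 read 12.91, 12.88 and 12.89 and AM30-3F4 11.54, 11.40 and 11.53, a difference of 1.41 (SE 0.13, adjusted p = 1.34e-10) between lines that are both labelled supportive. The supportive bone marrow line 14F1-1 read 7.24, 7.24 and 6.99, next to the non-supportive AFT011 of its set and far below 2012, a difference of -3.22 (SE 0.13, adjusted p = 5.35e-20). Tissue, mouse strain and culture temperature also differ between 14F1-1 and 2012 and cannot be told apart from the line. The order within the first set was BMC9, AFT024, BMC10, the UG26 lines and BFC012, where the ranges of the UG26 lines overlapped, as did those of AFT024 and BMC10. The order within the fourth set was AM14-1C4, AM30-3F4, 2012, and then 14F1-1 and AFT011, whose arrays overlapped.

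**Figure D2:**
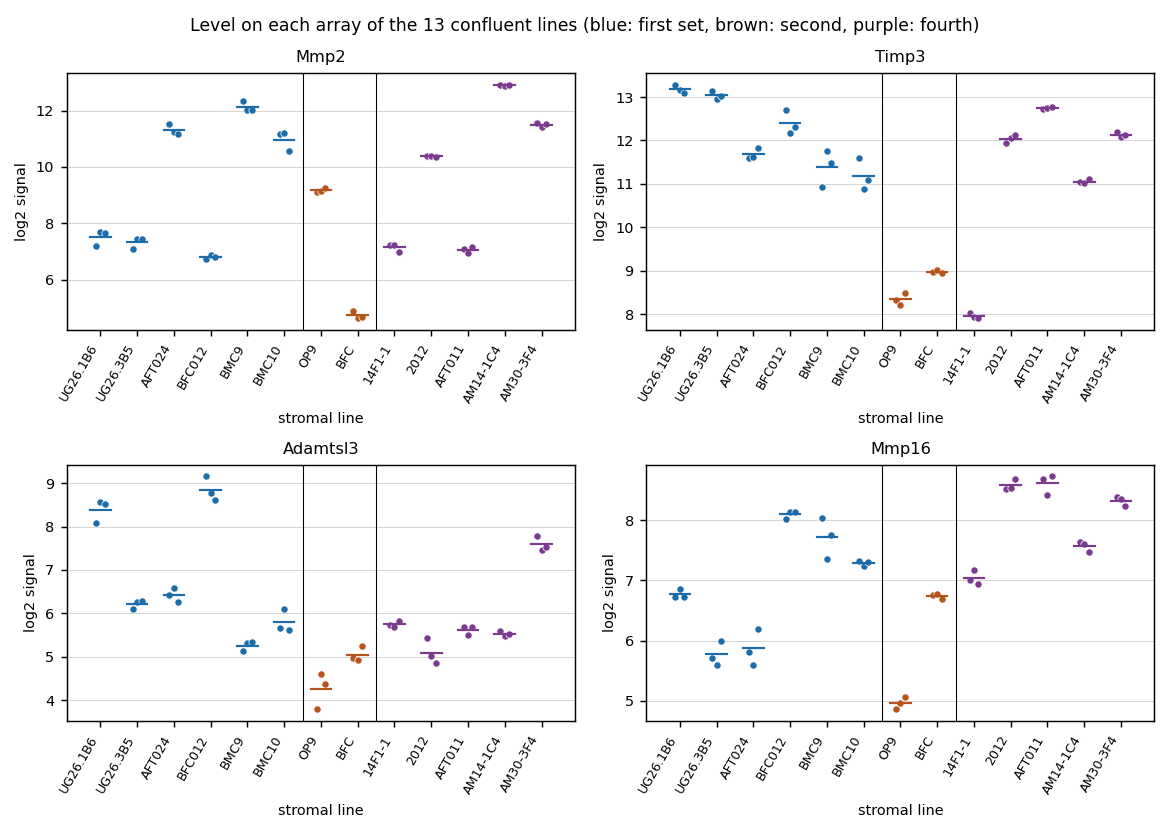
Deposited log2 signal (y axis) on each array (points) and mean (short lines) of the 13 confluent lines (x axis) for Mmp2, Timp3, Adamtsl3 and Mmp16; vertical rules separate sets normalized apart, between which levels cannot be compared. Mmp2 is low in both UG26 lines, BFC012, BFC, 14F1-1 and AFT011, and Timp3 is low in 14F1-1 within its set.

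Mmp9, the other gelatinase and a product mainly of neutrophils and macrophages in marrow, passed the threshold in none of the 5 pairs. It was higher in AM14-1C4 (7.48, 7.47 and 7.64) than in AM30-3F4 (6.27, 6.26 and 6.21), without overlap, by 1.28 (SE 0.12, adjusted p = 5.02e-11), in the pair where Lyz2 was also higher. Between 2012 and AFT011 it passed the threshold without AFT011 replicate 2 (0.36, adjusted p = 0.0243). Signals of different probe sets do not rank genes by abundance, so Mmp2 and Mmp9 are not set against each other.

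The collagenases and stromelysins include 10 genes that lie side by side on mouse chromosome 9, in the RefSeq order Mmp13, Mmp12, Mmp1b, Mmp3, Mmp1a, Mmp10, Mmp8, Mmp27, Mmp20 and Mmp7, with no other protein-coding gene between the ends. All 10 have a promoter in the RefSeq table (GRCm38.p6), as do 24 of the other members. The letters TGANTCA, a form of the AP-1 motif, stand within the 250 bases before the start of 8 cluster genes, on either strand, but in none of those 24, beside 6.75% of all 32851 promoters in the table. The TATA letters, TATAAA, stand in 7 of the 10 and in 3 of the 24, beside 12.4% of all. The GC box letters, GGGCGG, stand in none of the 10 and in 18 of the 24, beside 32.7%. Members were counted by gene, with a match in any of its promoters, while the shares of all count single promoters, so the units are unlike. A match is a description of letters and not of a site in use. The promoters of Mmp13 (chr9:7272264-7272513, plus strand) and Mmp3 (chr9:7445572-7445821, plus strand) are shown whole because these are the cluster genes that differed most between lines. Both run 5′ to 3′ and end at the base before the start, and capitals mark the AP-1 and the TATA letters.
Mmp13: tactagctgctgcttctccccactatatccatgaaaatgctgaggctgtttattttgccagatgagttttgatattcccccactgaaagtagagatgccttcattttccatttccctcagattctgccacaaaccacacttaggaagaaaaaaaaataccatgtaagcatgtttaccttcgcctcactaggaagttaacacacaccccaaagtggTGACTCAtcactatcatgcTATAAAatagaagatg
Mmp3: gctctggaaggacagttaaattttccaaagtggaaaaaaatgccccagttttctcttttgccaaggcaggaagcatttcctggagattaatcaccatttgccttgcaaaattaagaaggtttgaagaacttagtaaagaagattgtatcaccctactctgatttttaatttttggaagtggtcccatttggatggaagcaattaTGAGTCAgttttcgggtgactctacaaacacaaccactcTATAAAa
In Mmp13 the AP-1 match begins 35 bases and in Mmp3 46 bases before the start. For the other 6 cluster genes with the letters, the stretch around the match is shown, on the strand of the gene, with the AP-1 match in capitals, at chr9:7502267-7502297 (Mmp10), chr9:7464056-7464086 (Mmp1a), chr9:7347318-7347348 (Mmp12), chr9:7692015-7692045 (Mmp7) and chr9:7628124-7628154 (Mmp20) on the plus strand and chr9:7388101-7388131 (Mmp1b) on the minus strand.
Mmp10: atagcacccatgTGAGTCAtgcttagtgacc
Mmp1a: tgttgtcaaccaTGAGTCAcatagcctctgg
Mmp1b: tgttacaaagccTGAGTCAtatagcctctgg
Mmp12: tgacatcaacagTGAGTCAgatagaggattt
Mmp7: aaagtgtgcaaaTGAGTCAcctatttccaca
Mmp20: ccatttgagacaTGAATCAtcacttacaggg
In these the letters begin 63, 73, 93, 44, 63 and 95 bases before the start. Mmp8 and Mmp27 hold none in this window.

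Mmp13, the main interstitial collagenase of rodents, was lower in the supportive line in 3 pairs and higher in none. AFT024 arrays read 5.77, 5.86 and 6.03 and BFC012 arrays 6.79, 7.56 and 7.89, a difference of -1.53 (SE 0.18, adjusted p = 2.48e-08). In 2012 it was 6.08, 6.06 and 6.11 against 6.82, 6.97 and 6.89 in AFT011, and in OP9 5.17, 5.07 and 4.98 against 5.72, 5.73 and 5.67 in BFC. These groups did not overlap, and the differences were -0.81 (SE 0.18, adjusted p = 0.000821) and -0.63 (SE 0.18, adjusted p = 0.00582). Both 2012 and AFT011 lay below the median gene of their set, 7.434. Between the AM lines the gap was larger still: AM30-3F4 read 8.55, 8.32 and 8.45 and AM14-1C4 6.62, 6.48 and 6.53, a difference of -1.90 (SE 0.18, adjusted p = 1.95e-10). Mmp13 did not pass the threshold in the BMC pair (0.45, adjusted p = 0.102), where BMC9 replicate 1 stood at 7.02 and the other arrays of both lines at or below 6.01. Without BMC9 replicate 2 or 3 it did (0.61, adjusted p = 0.0333, and 0.63, adjusted p = 0.0242).

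Mmp3 (stromelysin-1, which cuts many matrix proteins and activates other Mmp precursors) stood out in the non-supportive lines BFC012 and BFC. BFC012 arrays read 5.26, 6.68 and 7.07, with replicate 1 far below the others, against 4.98, 5.17 and 4.93 in AFT024. BFC arrays read 5.64, 6.09 and 5.93 against 3.56, 3.80 and 3.58 in OP9. The groups did not overlap in either pair, and the differences were -1.31 (SE 0.23, adjusted p = 2.19e-05) and -2.24 (SE 0.23, adjusted p = 5.87e-10). AFT011, also non-supportive, read 5.60, 5.79 and 5.47, overlapping with 5.75, 5.78 and 5.60 in 2012. The difference was 0.092, with a 95% interval from -0.37 to 0.56 (adjusted p = 0.787). Between the AM lines it differed by 0.45, with a 95% interval from -0.009 to 0.92 (adjusted p = 0.145). The remaining cluster genes varied little, but all were dim: none had a group mean as high as the median gene of its set, in any set. The line means of Mmp12, Mmp1b, Mmp1a, Mmp8, Mmp27, Mmp20 and Mmp7 stayed between -0.14 and 0.15 of the mean of the lines in their set, although Mmp1a passed the threshold in OP9 over BFC (0.17, adjusted p = 0.048). Mmp10 (stromelysin-2) was lower in 2012 than in AFT011 (-0.31, adjusted p = 0.0315), and the call was lost without 2012 replicate 2 or 3 or AFT011 replicate 1 or 2 (-0.31 to -0.22, adjusted p from 0.0701 to 0.153).

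**Figure D3:**
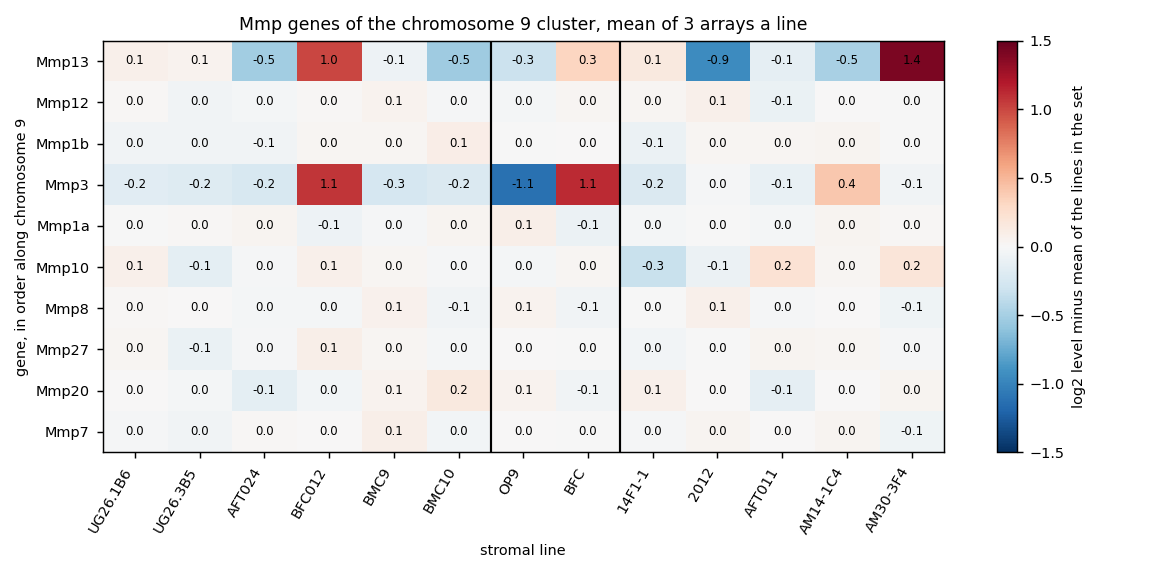
Mean log2 level of each chromosome 9 Mmp gene (y axis, in genomic order) in each confluent line (x axis), minus the mean of the lines in its set; colour and number give the same value. Mmp13 and Mmp3 carry the large values (1.0 and 1.1 in BFC012, 1.4 for Mmp13 in AM30-3F4) and most other cells are near 0.

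Mmp11 (stromelysin-3, cleared for secretion by furin and typical of stroma) lies outside the cluster. Its signal was 10.40, 10.26 and 10.12 in AFT024 and 9.51, 9.11 and 9.45 in BFC012, without overlap (0.90, SE 0.14, adjusted p = 6.71e-06). OP9 exceeded BFC by 0.84 (SE 0.14, adjusted p = 1.43e-05), and 14F1-1 exceeded 2012 by 1.00 (SE 0.14, adjusted p = 6.39e-07).

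Among the other secreted Mmp genes, Mmp23, Mmp28 and Mmp19 differed, while Mmp12, Mmp20, Mmp21 and Mmp27 did not pass the threshold in any of the 5 pairs. Mmp23, a cysteine-array enzyme that sits in the membrane until it is cut, was split between pairs. It was lower in AFT024 (6.30, 6.30 and 6.24) than in BFC012 (7.89, 7.48 and 7.68), a difference of -1.40 (SE 0.17, adjusted p = 3.07e-08), and lower in 2012 (6.98, 6.74 and 6.47) than in AFT011 (9.09, 9.01 and 9.0), a difference of -2.31 (SE 0.17, adjusted p = 5.11e-13). It was higher in BMC9 (9.60, 9.15 and 9.19) than in BMC10 (8.16, 7.99 and 7.56) by 1.41 (SE 0.17, adjusted p = 8.45e-08). OP9 stood above BFC by 1.96 (SE 0.17, adjusted p = 1.32e-11). Both pairs within fetal liver thus ran one way, without overlap of arrays, and the bone marrow pair and OP9 against BFC the other. In the AGM pair UG26.1B6 (9.38, 9.62 and 10.14) lay just above UG26.3B5 (8.59, 9.34 and 9.34), by 0.62 (SE 0.17, adjusted p = 0.0142). The call was lost at 0.41 (adjusted p = 0.16) without UG26.1B6 replicate 3 and at 0.38 (adjusted p = 0.21) without UG26.3B5 replicate 1.

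Mmp28 (epilysin) was higher in AFT024 (8.70, 8.30 and 8.35) than in BFC012 (7.49, 7.22 and 7.49) by 1.05 (SE 0.14, adjusted p = 2.71e-07) and higher in BMC9 than in BMC10 by 0.72 (SE 0.14, adjusted p = 0.000271). With only the arrays of the pair in the limma fit, the BMC call was lost (adjusted p = 0.0702). The call between 2012 and AFT011 (0.37, adjusted p = 0.0456) was lost without any 1 of the 6 arrays (0.31 to 0.41, adjusted p from 0.0521 to 0.197). Mmp28 was lower in UG26.1B6 (8.05, 8.33 and 8.26) than in UG26.3B5 (8.50, 9.07 and 8.77), a difference of -0.56 (SE 0.14, adjusted p = 0.00791). This call was lost without UG26.3B5 replicate 2 (-0.42, adjusted p = 0.0939) and with only the arrays of the pair in the fit (adjusted p = 0.0899). In the fourth set its highest level was in 14F1-1 (9.18, 9.30 and 9.42), 1.58 above 2012 (adjusted p = 2.62e-11). Mmp19, which cuts basement membrane proteins, was higher in OP9 (6.98, 7.03 and 6.88) than in BFC (5.14, 4.80 and 5.33) by 1.87 (SE 0.24, adjusted p = 8.3e-08), and higher in AFT024 than in BFC012 by 0.68 (SE 0.24, adjusted p = 0.0305). It was also higher in 14F1-1 (9.37, 9.42 and 9.46) than in 2012 (7.32, 7.23 and 7.01) by 2.23 (SE 0.24, adjusted p = 1.92e-09) and in AM14-1C4 than in AM30-3F4 by 1.5 (SE 0.24, adjusted p = 4.63e-06).

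The membrane-type enzymes act at the cell surface, and Mmp14 is the one that activates the Mmp2 precursor together with Timp2. Of the 3 pairs in which Mmp2 differed most, Mmp14 passed the threshold in 1. It was 11.96, 11.61 and 11.38 in AFT024 and 11.07, 11.45 and 11.68 in BFC012, overlapping, and the difference was 0.25, with a 95% interval from -0.061 to 0.56 (adjusted p = 0.265). OP9 and BFC also overlapped (-0.024, with a 95% interval from -0.33 to 0.28, adjusted p = 0.933). It was lower in 2012 (10.77, 10.83 and 10.80) than in AFT011 (11.39, 11.29 and 11.38), a difference of -0.56 (SE 0.15, adjusted p = 0.00548), opposite to Mmp2 in the same pair. The difference of Timp2 between AFT024 and BFC012 was -0.087, with a 95% interval from -0.23 to 0.053 (adjusted p = 0.424).

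Mmp16, another membrane-type enzyme able to activate the Mmp2 precursor, was low in AFT024 (5.81, 5.60 and 6.20) and high in BFC012 (8.02, 8.13 and 8.14). OP9 arrays (4.86, 4.96 and 5.06) were likewise below BFC arrays (6.75, 6.77 and 6.69). The differences were -2.23 (SE 0.12, adjusted p = 2.73e-16) and -1.78 (SE 0.12, adjusted p = 8.17e-14), so in both pairs Mmp16 ran opposite to Mmp2. The AGM lines ran the other way, 6.73, 6.85 and 6.72 in UG26.1B6 and 5.71, 5.60 and 6.00 in UG26.3B5 (1.00, SE 0.12, adjusted p = 4.26e-07), and 2012 and AFT011 overlapped (-0.031, with a 95% interval from -0.28 to 0.22, adjusted p = 0.87). Mmp16 was also lower in 14F1-1 than in 2012, a difference of -1.54 (SE 0.12, adjusted p = 2.5e-12). In the BMC pair the difference of 0.43 (adjusted p = 0.0142) was not past the threshold with the replicate number as a block (adjusted p = 0.065), without BMC9 replicate 1 (0.27, adjusted p = 0.178) or without BMC10 replicate 2 (0.41, adjusted p = 0.0527). Mmp17 was lower in 2012 than in AFT011 (-0.26, adjusted p = 0.00754). Mmp25, known from leukocytes, was higher in AFT024 by 0.27 (adjusted p = 0.02), and in UG26.1B6 its difference of 0.29 lost the call without any of 5 arrays (adjusted p from 0.0599 to 0.176), UG26.3B5 replicate 3 being the exception. Mmp24 did not pass the threshold in any of the 5 pairs.

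Of the 7 proteoglycan-cleaving Adamts genes, Adamts5, Adamts1 and Adamts9 carried the differences. Adamts5, the main aggrecanase of mouse cartilage, read 10.79, 10.42 and 10.98 in BMC9 and 9.89, 9.10 and 8.10 in BMC10. In 2012 it was 11.22, 11.36 and 11.31 against 9.88, 9.79 and 9.97 in AFT011, and in OP9 8.67, 8.95 and 8.49 against 7.23, 7.33 and 7.28 in BFC. The supportive line was above in every array, by 1.70 (SE 0.31, adjusted p = 0.000119), 1.42 (SE 0.31, adjusted p = 0.000623) and 1.42 (SE 0.31, adjusted p = 0.000377). In the AFT024 pair the order was reversed, with 10.32, 10.20 and 9.76 in AFT024 and 10.60, 10.46 and 10.47 in BFC012. These arrays did not overlap either, and the difference, -0.42, with a 95% interval from -1.05 to 0.22 (adjusted p = 0.391), did not pass the threshold. The AM lines, both supportive, were far apart: AM14-1C4 read 8.38, 8.05 and 8.51 and AM30-3F4 10.67, 10.59 and 10.56, -2.30 (SE 0.31, adjusted p = 2.58e-07).

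Adamts1, a versican- and aggrecan-cleaving enzyme, was higher in 2012 (10.90, 10.88 and 10.81) than in AFT011 (9.59, 9.40 and 9.68) by 1.31 (SE 0.24, adjusted p = 6.14e-05) and higher in BMC9 (9.99, 9.86 and 10.55) than in BMC10 (9.40, 9.01 and 9.22) by 0.93 (SE 0.24, adjusted p = 0.00587). The BMC call was lost without BMC9 replicate 3 (0.71, adjusted p = 0.0642). AFT024 (9.31, 9.40 and 9.15) lay below BFC012 (9.56, 9.89 and 9.70) without overlap. That difference, -0.43, with a 95% interval from -0.92 to 0.058 (adjusted p = 0.21), did not pass the threshold, but did with only the 6 arrays of the pair in the fit (adjusted p = 0.0274). In the AGM pair both replicate 1 arrays were the highest of their group for Adamts1 and Adamts5, and UG26.3B5 replicate 1 stood apart, at 9.76 and 11.08, above the other 2 at 7.96 and 8.14 and at 9.29 and 9.27. UG26.1B6 read 9.46, 8.89 and 8.93 for Adamts1 and 10.67, 10.22 and 10.00 for Adamts5. With all arrays the differences were 0.47 (adjusted p = 0.266) and 0.42 (adjusted p = 0.499), and without UG26.3B5 replicate 1 they were 1.04 (adjusted p = 7.09e-06) and 1.02 (adjusted p = 0.0112). The replicate numbers pair these arrays. Without replicate 1 of both lines, chosen after the data were seen, Adamts1 was higher in UG26.1B6 by 0.86 (SE 0.14, adjusted p = 0.000103), while the difference of Adamts5, 0.83 (SE 0.28, adjusted p = 0.0688), did not pass the threshold. In that fit 9 members passed it in the AGM pair, beside 6.72% of all genes.

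Adamts9 was high in BFC012 (9.54, 8.97 and 8.51) and lower in AFT024 (7.21, 7.14 and 7.30), a difference of -1.79 (SE 0.14, adjusted p = 2.61e-12), and its 6 probe sets all ran that way, from -3.14 to -0.90. It was also lower in 2012 than in AFT011, a difference of -0.87 (SE 0.14, adjusted p = 1.25e-05), and higher in AM14-1C4 (9.88, 9.84 and 9.80) than in AM30-3F4 (7.71, 7.75 and 7.81), by 2.08 (SE 0.14, adjusted p = 6.41e-14). In OP9 over BFC the direction turned (0.66, adjusted p = 0.000297), again over all 6 probe sets. Adamts4, an aggrecanase like Adamts5, was higher in AFT024 than in BFC012 by 0.75 (SE 0.14, adjusted p = 9.17e-05) and higher in OP9 than in BFC by 0.58 (SE 0.14, adjusted p = 0.00155). Adamts15 passed the threshold only between the AM lines (0.26, adjusted p = 0.0424), and Adamts8 and Adamts20 in none of the comparisons of confluent lines.

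The procollagen N-propeptidases trim fibrillar collagens so that they can assemble. Adamts14 was higher in AFT024 (9.22, 8.70 and 8.94) than in BFC012 (7.30, 6.88 and 7.01) by 1.89 (SE 0.096, adjusted p = 2.33e-17), and higher in UG26.1B6 (8.84, 8.75 and 8.97) than in UG26.3B5 (7.91, 7.87 and 7.94) by 0.95 (SE 0.096, adjusted p = 6.88e-09). No arrays of these pairs overlapped. Between the AM lines it differed by 1.74 (SE 0.096, adjusted p = 2.59e-16), and Adamts3 by 1.43 (SE 0.086, adjusted p = 2.43e-15), with all 16 Adamts3 probe sets higher in AM14-1C4, by 0.74 to 3.13. Adamts3 and Adamts14 ran in opposite directions between AFT024 and BFC012, where Adamts3 was lower, a difference of -0.40 (SE 0.086, adjusted p = 0.000382), again over all 16 of its probe sets. In OP9 against BFC Adamts3 was lower by the probe set used (-0.34, adjusted p = 0.00188) but not past the threshold by the mean of its probe sets (-0.11, adjusted p = 0.248). In UG26.1B6 its difference of 0.29 (adjusted p = 0.0308) lost the call without UG26.1B6 replicate 2 or 3 or UG26.3B5 replicate 1 or 2 (0.23 to 0.27, adjusted p from 0.103 to 0.148). Adamts14 in BMC9 against BMC10 (-0.31, adjusted p = 0.0255) lost it with the replicate number as a block (adjusted p = 0.0571) and without BMC9 replicate 2 or BMC10 replicate 1 or 3 (-0.31 to -0.23, adjusted p from 0.0509 to 0.157).

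Adamts12, which cuts cartilage oligomeric matrix protein as Adamts7 does, was with Mmp2 the member higher in the more supportive line in the most pairs, 4 of 5. It read 7.54, 7.52 and 7.56 in AFT024 and 6.68, 6.12 and 6.55 in BFC012, and 9.88, 9.76 and 9.41 in BMC9 and 8.53, 9.02 and 7.84 in BMC10. Arrays of OP9 (6.28, 6.46 and 6.46) lay above those of BFC (4.80, 4.87 and 4.89), and those of UG26.1B6 (7.76, 8.21 and 8.20) above those of UG26.3B5 (7.27, 7.5 and 7.28). No pair overlapped, and the differences were 1.09, 1.22, 1.55 and 0.71, with adjusted p = 2.33e-06, 8.4e-07, 1.74e-09 and 0.00394. The fifth pair gave -0.071, with a 95% interval from -0.41 to 0.27 (adjusted p = 0.772), and between the AM lines it was lower in AM14-1C4, a difference of -1.05 (SE 0.17, adjusted p = 3.12e-06). Adamts7 was higher in AFT024 by 0.38 (adjusted p = 0.0133). Of the other Adamts genes, Adamts6 was lower in AFT024 than in BFC012 (-0.58, adjusted p = 0.00391) and lower in OP9 than in BFC (-0.66, adjusted p = 0.000891). Adamts10, which binds fibrillin microfibrils, was lower in AFT024 (-0.56, adjusted p = 0.000289) but higher in OP9 (0.49, adjusted p = 0.000956). Adamts16 in 2012 over AFT011 (0.25, adjusted p = 0.044) lost the call without 2012 replicate 1 (0.12, adjusted p = 0.477) or AFT011 replicate 1 or 3 (0.27 and 0.21, adjusted p = 0.0714 and 0.184). Adamts13, the von Willebrand factor protease, Adamts17, Adamts18 and Adamts19 passed it in none of the 5 pairs.

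The ADAMTS-like proteins lack the protease domain and bind the matrix. Adamtsl3 showed the widest split of all members between pairs. UG26.1B6 arrays read 8.08, 8.57 and 8.51 and UG26.3B5 arrays 6.09, 6.27 and 6.28. AFT024 arrays read 6.43, 6.59 and 6.27 and BFC012 arrays 9.16, 8.77 and 8.62. The AGM lines differed by 2.17 (SE 0.16, adjusted p = 4.77e-12) and AFT024 minus BFC012 was -2.42 (SE 0.16, adjusted p = 3.89e-14), so that the supportive AGM line and the non-supportive fetal liver line were the high ones of the set. The BMC, 2012 and OP9 pairs followed AFT024 in direction, at -0.53, -0.52 and -0.79 (adjusted p = 0.0214, 0.0151 and 0.000193). Both lines of each of these pairs were dim. The higher means, in BMC10, AFT011 and BFC, were 5.79, 5.62 and 5.045, beside median genes of 7.303, 7.434 and 5.269 in their sets. The BMC call was lost without BMC9 replicate 1 (-0.47, adjusted p = 0.0915) or BMC10 replicate 2 (-0.39, adjusted p = 0.174), and the 2012 call without 2012 replicate 3 or AFT011 replicate 1 or 3 (-0.50 to -0.40, adjusted p from 0.0545 to 0.0933). AM30-3F4 (7.78, 7.47 and 7.53) was above AM14-1C4 (5.59, 5.47 and 5.52), and AM14-1C4 minus AM30-3F4 was -2.07 (SE 0.16, adjusted p = 2.15e-12). Adamtsl4, linked to fibrillin fibres, was higher in AFT024 than in BFC012 by 1.15 (SE 0.17, adjusted p = 2.35e-06). Adamtsl1 was higher in BMC9 (6.99, 7.66 and 7.55) than in BMC10 (6.48, 6.45 and 6.54), by 0.91 (SE 0.12, adjusted p = 3.31e-07). Adamtsl5 was 0.58 higher in 14F1-1 than in 2012 (adjusted p = 0.00262) and 0.56 higher in 2012 than in AFT011 (adjusted p = 0.00605), and Adamtsl2 passed the threshold in none of the 5 pairs.

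Among the inhibitors, Timp1 and Timp3 carried the large differences in the 5 pairs. Timp1, a broad Mmp inhibitor, read 9.18, 9.25 and 9.39 in OP9 and 6.77, 6.80 and 6.74 in BFC, and 11.78, 12.06 and 12.48 in AFT024 and 10.92, 10.96 and 10.97 in BFC012. No arrays overlapped, and the differences were 2.50 (SE 0.10, adjusted p = 5.86e-20) and 1.15 (SE 0.10, adjusted p = 4.22e-11). In the second fetal liver pair the direction turned, 11.19, 11.27 and 11.12 in 2012 and 11.75, 11.61 and 11.76 in AFT011 (-0.51, SE 0.10, adjusted p = 0.000209). Neither the AGM pair, at 0.022, with a 95% interval from -0.19 to 0.23 (adjusted p = 0.938), nor the BMC pair, at -0.028, with a 95% interval from -0.24 to 0.18 (adjusted p = 0.907), passed the threshold.

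Timp3, the inhibitor that stays bound to matrix and also blocks ADAMTS aggrecanases and Adam17, was lower in the supportive line in 3 pairs. AFT024 read 11.59, 11.62 and 11.83 against 12.70, 12.17 and 12.31 in BFC012. It was 11.95, 12.05 and 12.12 in 2012 against 12.72, 12.74 and 12.77 in AFT011, and 8.33, 8.21 and 8.48 in OP9 against 8.97, 9.01 and 8.95 in BFC. The groups did not overlap, and the differences were -0.71 (SE 0.14, adjusted p = 0.000178), -0.70 (SE 0.14, adjusted p = 0.000251) and -0.63 (SE 0.14, adjusted p = 0.000548). In the BMC pair Timp3 passed the threshold without BMC9 replicate 1 (0.42, adjusted p = 0.0334) but not with all arrays (0.20, adjusted p = 0.439). The lowest level in the fourth set by far was in 14F1-1, 8.02, 7.93 and 7.91, a difference of -4.08 (SE 0.14, adjusted p = 6.27e-22) from 2012, which was the largest of any member in that comparison. The lowest other array of the set, one of AM14-1C4, read 11.01. Timp2, which both blocks Mmp2 and helps Mmp14 to activate it, differed less: it was higher in OP9 than in BFC by 0.34 (SE 0.068, adjusted p = 0.000149) and in AM14-1C4 than in AM30-3F4 by 0.51 (SE 0.068, adjusted p = 1.83e-07). In UG26.1B6 its difference of 0.27 (adjusted p = 0.00859) was not past the threshold with the replicate number as a block (adjusted p = 0.0611) or without UG26.3B5 replicate 3 (0.23, adjusted p = 0.066). Timp4 varied among confluent lines mainly through AM14-1C4 (7.91, 7.86 and 7.76), above AM30-3F4 (5.40, 5.65 and 5.42) by 2.35 (SE 0.12, adjusted p = 2.61e-17). Its difference of 0.40 between AFT024 and BFC012 (adjusted p = 0.00988) rested on AFT024 replicate 1, at 6.16, and was 0.19 (adjusted p = 0.238) without it.

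Lines with the same support label also differed from each other. Between AM14-1C4 and AM30-3F4, both supportive and from the same tissue and strain, 20 of 49 members were past the threshold, beside 31.6% of all genes, 11 higher and 9 lower (beside 15.9% and 15.8%). Between 14F1-1 and 2012, also both supportive, 20 were past it, beside 36.6%, 11 higher and 9 lower (beside 18.1% and 18.5%). An F-test over the lines of a set, which asks whether any lines differ, was past the threshold for 29 members among the 6 lines of the first set, beside 55.4% of all genes, and for 29 among the 5 lines of the fourth, beside 56.9%. With the line as the unit, 12 lines, and terms for tissue and set, 0 members and 0 of the 19938 genes (0%) were past the threshold for support; BFC, alone in its set here, carries no weight in this fit, and OP9 was left out. At an unadjusted p below 0.05, where all genes were not counted, this limma fit gave 1 member, Adamtsl2, at a difference of 0.11. Mmp2 had the largest difference among members, 2.34 (SE 1.59, adjusted p = 0.895).

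AFT024 and BFC012 were also compared as sorted cells. On the sorted arrays without KLS cells Mmp2 read 7.53, 9.09 and 9.18 in AFT024 and 5.64, 5.56 and 5.81 in BFC012, a difference of 2.93 (SE 0.36, adjusted p = 0.000762). Mmp16 read 4.36, 4.59 and 4.97 in AFT024 and 6.53, 8.04 and 7.94 in BFC012, -2.86 (SE 0.34, adjusted p = 0.00065). For Mmp23 the difference was -0.86 (SE 0.11, adjusted p = 0.000823). Replicate 1 of AFT024 was low for Mmp2 and replicate 1 of BFC012 low for Mmp16, but the lines did not overlap. Mesothelial or epithelial markers again moved with the pair, 0 of 9 higher and 5 lower. In all, 8 members were past the threshold, beside 7.32% of all genes, 2 higher and 6 lower (beside 3.51% and 3.81%). All 8 were past it in the same direction on confluent arrays, an overlap that was not counted over all genes. Of these 8, Mmp2, Mmp16 and Mmp23 kept the call with each array left out, while Adamts9, Adamtsl3, Adamts14, Mmp3 and Timp3 each lost it when any of 4 or 5 of the 6 arrays was left out, at adjusted p between 0.0508 and 0.166, with differences of the same sign. The replicate numbers pair these arrays, and with them as a block Mmp3 also lost the call (adjusted p = 0.0631). Timp1, at 1.26 (adjusted p = 0.0915), passed it without replicate 1 of BFC012 (1.55, adjusted p = 0.0376), and so did Timp4 (-1.35, adjusted p = 0.0118). Across the 49 members the confluent and sorted differences had a Pearson r of 0.846, beside 0.757 over all genes. The 49 points come from the same 2 lines.

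The second fetal liver pair resembled the first less. Across members r was 0.576 between AFT024 minus BFC012 and 2012 minus AFT011, beside 0.22 over all genes. Mmp2 had the largest difference of any member in both pairs (4.51 and 3.32) and weighs heavily in this r. No r was computed without Mmp2, so this value does not show that the other members were more alike than all genes. Of the 22 members past the threshold in the first pair and 15 in the second, 8 were shared (36.4% and 53.3%), of which 7 ran in the same direction: Mmp2 and Mmp28 higher, and Adamtsl3, Mmp13, Adamts9, Mmp23 and Timp3 lower. Timp1 was the eighth and ran in opposite directions. Mesothelial or epithelial markers moved with this pair too, 5 of 9 lower and 1 higher in 2012, with a mean between 6.93 and 7.22 on its arrays and between 8.25 and 8.27 on those of AFT011. Between AFT024 minus BFC012 and OP9 minus BFC, r across members was 0.661, beside 0.37 over all genes. Mmp2 was again the member with the largest difference in both (4.51 and 4.44), and the same limit holds. The label BFC also does not tell whether these cells are separate from BFC012. Of the calls in these pairs 16 were shared (72.7% and 84.2%), 13 of them in the same direction. Shared calls were not counted over all genes for any of these pairs, so these shares cannot set the members apart from other genes.

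**Figure D4:**
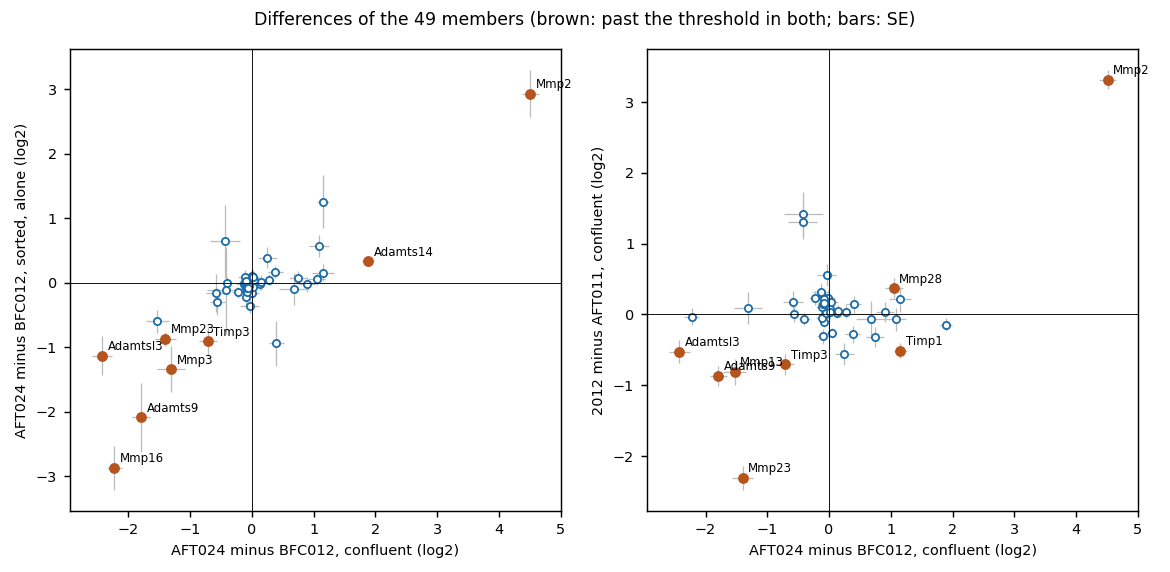
Differences of the 49 members in log2 signal, confluent AFT024 minus BFC012 (x axis) against sorted AFT024 minus BFC012 grown alone (left, y axis) and against 2012 minus AFT011 (right, y axis); bars are SE and brown points passed the threshold in both. Mmp2 lies at the upper right in both panels, and Timp1 lies above 0 in the left panel and below 0 in the right.

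Co-culture for 4 days with KLS cells changed few of these genes in stroma. In AFT024 none of the 49 members passed the limma threshold, beside 0.351% of all genes, and 6 had an unadjusted p below 0.05. In BFC012 2 members did, beside 0.883%: Timp4 was higher and Timp3 lower, beside 0.612% and 0.271%, and 10 had an unadjusted p below 0.05. All genes were not counted at this unadjusted cut, so the 6 and 10 have no share beside them. Timp4, the inhibitor with the most restricted expression among tissues, read 4.94, 5.94 and 6.45 in BFC012 alone and 9.56, 8.64 and 9.78 with KLS cells. The groups were far apart, and the difference of 3.55 (SE 0.35, adjusted p = 0.000755) is a rise of 11.7-fold. In AFT024 it stayed low, at 4.89, 4.80 and 4.83 alone and 5.24, 5.0 and 5.04 with KLS cells (0.25, with a 95% interval from -0.52 to 1.02, adjusted p = 0.909). The difference between the lines' responses was -3.30 (SE 0.49, adjusted p = 0.0618), not past the threshold. It passed the threshold after cyclic loess normalization (adjusted p = 0.0481), with dim genes left out (0.0483) and without replicate 1 of BFC012 alone (-2.88, adjusted p = 0.0219). Between the lines grown with KLS cells Timp4 was lower in AFT024, a difference of -4.23 (SE 0.35, adjusted p = 3.47e-05).

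The promoter of Timp4 is shown because this gene carries the clearest response to KLS cells, and that of Adamts1 because every array with KLS cells read above every array without them in both lines, though the difference did not pass the threshold. They lie at chr6:115252206-115252455 and chr16:85803114-85803363 (GRCm38.p6, both on the minus strand) and are written on the strand of the gene, 250 bases up to the start.
Timp4: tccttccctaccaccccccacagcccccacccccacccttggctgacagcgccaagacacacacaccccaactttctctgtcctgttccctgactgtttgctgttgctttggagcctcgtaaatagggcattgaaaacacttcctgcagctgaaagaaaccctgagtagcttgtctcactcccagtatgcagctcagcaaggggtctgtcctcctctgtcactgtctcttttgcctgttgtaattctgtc
Adamts1: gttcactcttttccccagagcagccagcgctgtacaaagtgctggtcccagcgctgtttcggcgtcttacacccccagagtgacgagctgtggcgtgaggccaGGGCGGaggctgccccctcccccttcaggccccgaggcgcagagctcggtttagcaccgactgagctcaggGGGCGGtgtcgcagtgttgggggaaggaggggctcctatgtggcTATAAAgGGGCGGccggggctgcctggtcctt
Capitals in Adamts1 mark 3 matches of the GC box letters and 1 of the TATA letters. None of the 3 motifs stands in the window of Timp4.

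Timp3 ran opposite to Timp4 in BFC012. It was 10.21, 10.55 and 10.60 alone and 9.07, 9.38 and 9.27 with KLS cells, without overlap, a difference of -1.21 (SE 0.22, adjusted p = 0.0308). This call was lost when any array of BFC012 but replicate 1 grown alone was left out (differences from -1.28 to -1.13, adjusted p from 0.0953 to 0.146). In AFT024 Timp3 read 10.06, 9.22 and 9.35 alone and 9.13, 9.67 and 9.14 with KLS cells, overlapping (-0.23, with a 95% interval from -0.72 to 0.25, adjusted p = 0.836). Adamts1 was 7.07, 8.89 and 9.15 in AFT024 alone and 10.42, 9.97 and 9.34 with KLS cells. In BFC012 it was 6.57, 8.21 and 8.40 and 9.36, 9.19 and 8.90. The groups did not overlap in either line, but the differences, 1.54 and 1.42, did not pass the threshold (adjusted p = 0.383 and 0.411). Mmp19 likewise read above on every AFT024 array with KLS cells (6.79, 7.39 and 7.21 against 5.84, 6.34 and 6.18; 1.01, adjusted p = 0.133). Groups apart in this way were found for 8 members in AFT024, beside 14.5% of all genes, and for 11 in BFC012, beside 17.3%.

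The arrays that stand apart bear on these counts. Replicate 1 of each line grown alone read low for Adamts1 (7.07 and 6.57) and Adamts5 (6.98 and 6.84) where the other 4 arrays lay between 8.21 and 9.50. Adamts5 gave no call with all arrays, at -0.93 in BFC012 (adjusted p = 0.731) and 0.069 in AFT024 (adjusted p = 0.99). Without those 2 arrays it was lower with KLS cells in both lines, a difference of -1.78 (SE 0.12, adjusted p = 3.25e-05) in BFC012 and -0.66 (SE 0.12, adjusted p = 0.0195) in AFT024. Mmp3 in BFC012 read 4.72, 6.55 and 6.19 alone and 4.86, 4.79 and 4.78 with KLS cells, and its difference went from -1.01 (adjusted p = 0.32) to -1.56 (SE 0.16, adjusted p = 0.000561). Leaving out replicate 1 of BFC012 alone was enough for this call (-1.56, adjusted p = 0.00134) and for that of the difference between responses (1.66, adjusted p = 0.0219). Without the 2 arrays, 7 members were past the threshold in BFC012, beside 4.76% of all genes, namely Timp4 higher and Adamtsl3, Timp3, Mmp16, Adamts5, Mmp11 and Mmp3 lower. In AFT024 there were 3, Mmp19 higher and Adamts14 and Adamts5 lower, beside 2.07%. For the difference between responses there were 4 (Timp3, Timp4, Adamts5 and Mmp3), beside 0.662%. With all arrays this difference gave 0 members by limma, beside 0.0401%, and 7 at an unadjusted p below 0.05, a cut at which all genes were not counted. Leaving out replicate 1 of AFT024 with KLS cells as well gave 12, 4 and 7 members, beside 10.4%, 5.99% and 3.8% of all genes. Leaving out arrays that stand apart also lowers the spread that the test reads, and it was chosen after the data were seen.

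**Figure D5:**
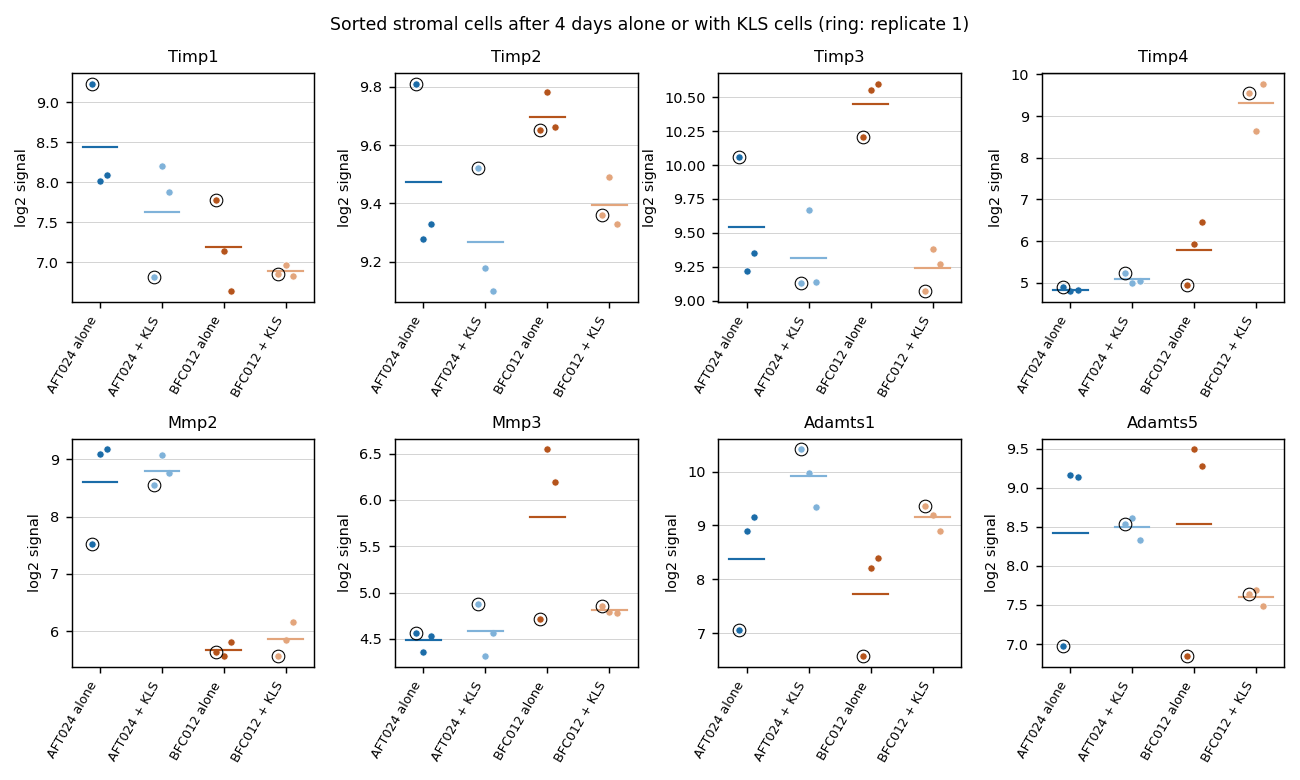
Deposited log2 signal (y axis) on each array (points) and mean (short lines) of sorted AFT024 and BFC012 grown alone or with KLS cells (x axis) for the 4 Timp genes, Mmp2, Mmp3, Adamts1 and Adamts5; rings mark replicate 1. Timp4 lies between 8.64 and 9.78 in BFC012 with KLS cells and at or below 6.45 elsewhere, and ringed points stand low for Adamts1 and Adamts5 in both groups grown alone.

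With KLS cells the lines differed in 8 members, beside 11.6% of all genes, 4 higher and 4 lower in AFT024 (beside 6.09% and 5.52%). Mmp2 (2.94), Mmp11 (0.62), Timp4, Mmp16 (-2.15) and Mmp23 (-0.81) kept this with each array left out. Adamts9 (-2.38), Adamts12 (0.75) and Mmp14 (0.70) lost it without 1 array or more, at adjusted p between 0.0541 and 0.0899. Without replicate 1 of the groups grown alone, 11 members differed between the lines with KLS cells, beside 19.7% of all genes, and 9 between the lines alone, beside 12.1%. Without replicate 1 of AFT024 with KLS cells as well these were 15, beside 26.9%, and 15, beside 19.6%. None of the 13 hematopoietic markers passed the threshold for KLS cells in either line. Their mean was 4.59 to 4.64 on AFT024 arrays alone and 4.65 to 4.75 with KLS cells, and 4.66 to 4.69 and 4.66 to 4.93 on BFC012 arrays.

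Genes that act with these enzymes also differed between lines, unevenly over the pairs. Of 16 activators and cell-surface regulators, 0 were higher and 1 lower in UG26.1B6, and 2 and 1 in BMC9, within their pairs. Of 11 genes of procollagen processing and cathepsins, these counts were 0 and 1, and 2 and 1. Of 9 ADAMTS substrates they were 1 and 1 in both pairs. The shares of all genes were 4.34% and 4.22% for UG26.1B6 and 7.28% and 8.18% for BMC9. Of 16 activators and cell-surface regulators 10 were higher and 1 lower in OP9 than in BFC, beside 17.5% and 16.9% of all genes, with a median difference of 0.44 beside 0.014 over all genes. Lrp1, the receptor that clears proteases and their inhibitors, was higher by 1.75 (SE 0.11, adjusted p = 6.46e-15) and Thbs2, a matrix protein that binds Mmp2 for clearance, by 1.68 (SE 0.18, adjusted p = 2.76e-09). Of 11 genes of procollagen processing and cathepsins 7 were higher and 2 lower, beside the same shares of all genes: the collagen-cutting protease Ctsk was higher by 1.66 and the surface protease Fap by 2.15 in OP9, while the procollagen enhancer Pcolce2 was lower, a difference of -4.06 (SE 0.26, adjusted p = 6.46e-15). Among 9 ADAMTS substrates 5 were higher and 0 lower, led by versican, Vcan (2.96, SE 0.24, adjusted p = 2.82e-12). Between AFT024 and BFC012, 4 of 10 ADAM proteases were higher and 4 lower, beside 15.6% and 12.9% of all genes. Their median difference was -0.196, beside -0.015 over all genes. The largest differences were those of Adam8, at 2.69 (SE 0.18, adjusted p = 1.82e-14), and Adam19, at 1.66 (SE 0.17, adjusted p = 6.58e-10). Plau, the urokinase that forms plasmin, was higher in AFT024 by 2.42 (SE 0.15, adjusted p = 7.66e-15) and again in sorted cells by 2.39 (SE 0.20, adjusted p = 7.59e-05), but lower in 2012 than in AFT011, a difference of -0.78 (SE 0.15, adjusted p = 0.000153). Of 9 AP-1 and related factors, 4 were higher and 1 lower in AFT024, beside the same 15.6% and 12.9%: Ets2 by 0.73 and Jun by 0.50 were higher, and Fosl2 (-0.70) was lower. With KLS cells, 0 of 9 factors of this list passed the threshold in either line. Adam12, a disintegrin protease of mesenchymal cells, was higher with KLS cells in both lines, by 1.74 (SE 0.20, adjusted p = 0.00433) in AFT024 and 1.05 (SE 0.20, adjusted p = 0.0409) in BFC012, and Adam10 in BFC012 by 0.75 (SE 0.095, adjusted p = 0.00328).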

How the data were processed

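Stromal RNA was measured on Affymetrix mouse gene 1.0 ST arrays; the labels' protocols name Trizol extraction and biotin labelling. The deposited values are log2 signals per probe set. RMA and Partek are the tools that the submitters' processing notes name for them, and the settings are not given in the sources used here. Quantiles matched within 4 sets of arrays (mean gaps up to 0.107) and differed between them (0.144 or more). Of 35556 probe sets, 21789 name 1 gene.

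Here, limma 3.58.1 in R 4.3.3 was fitted to 39 confluent arrays and, apart, to 12 sorted arrays, over all 19938 genes with no filter on low signal; two-sided p-values were adjusted by Benjamini-Hochberg, threshold 0.05. The number of arrays, 3 a group, limits the precision. Scripts were tested on simulated data. Replicate numbers paired arrays, with every correlation of same-numbered deviations over 0.1, in the AGM pair (0.535, 0.327 and 0.468), the BMC pair (0.323, 0.116 and 0.435) and the sorted pair grown alone (0.671, 0.517 and 0.466), as found in the data and not stated by the labels. Named were up to 8 members a direction with the largest differences among those past the threshold without overlap, a panel of 11 genes (Mmp2, Mmp3, Mmp9, Mmp13, Mmp14, Adamts1, Adamts5, Timp1 to Timp4) and up to 3 genes a partner list; other members are named to account for all 49. The members and lists were chosen with earlier results of these data known. Promoters came from RefSeq (GRCm38.p6).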

Additional observations from a re-analysis of the deposited data

Results flagged for a closer look

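Members that passed the threshold in opposite directions in 2 pairs of lines, with the difference between the pairs also past it, are listed here; this test was added after the data were seen, and values are the first pair's difference minus the second's on the log2 scale, by limma. Against the AFT024 minus BFC012 difference, the UG26.1B6 minus UG26.3B5 difference was larger by 4.60 for Adamtsl3 (adjusted p = 3.61e-17), 3.22 for Mmp16 (adjusted p = 3.08e-16), 2.03 for Mmp23 (adjusted p = 3.07e-08) and 0.69 for Adamts3 (adjusted p = 4.08e-05). For Mmp28 it was -1.61 (adjusted p = 8.34e-08).

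Against the BMC9 minus BMC10 difference, that of the UG26 lines gave 2.71 for Adamtsl3 (adjusted p = 7.41e-11), 1.25 for Adamts14 (adjusted p = 1.58e-08) and -1.29 for Mmp28 (adjusted p = 1.26e-05). The AFT024 minus BFC012 difference less that of the BMC lines was -2.66 for Mmp16 (adjusted p = 3.94e-14), -2.81 for Mmp23 (adjusted p = 1.86e-11) and 2.19 for Adamts14 (adjusted p = 7.3e-15). Between the fetal liver pairs Timp1 gave 1.66 (adjusted p = 4.3e-11), AFT024 minus BFC012 less 2012 minus AFT011. Some of the calls within pairs behind these values were lost when 1 array was left out: those of Mmp23, Mmp28 and Adamts3 in the UG26 lines and of Mmp16, Adamts14 and Adamtsl3 in the BMC lines. That of Mmp28 in the BMC lines was lost with only the arrays of the pair in the fit (adjusted p = 0.0702). The differences between pairs were not refitted without single arrays.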

How the results depend on the processing

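With only the arrays of both groups in the fit, 4 members passed in the AGM pair, 6 in the BMC pair and 3 in the sorted pair grown alone, fewer than the 9, 10 and 8 of the fit to all arrays; all-gene counts were 748, 1296 and 884. With the replicate number as a block over the sorted groups, 1 member passed for KLS cells in AFT024 and 1 in BFC012, where Timp3 lost its call (adjusted p = 0.058); the other blocked counts lay within 1.5 times. In the AFT024 pair, whose numbers do not pair the arrays, Adamts1 and Adamts5 passed the threshold with the replicate number as a block (-0.43, adjusted p = 0.0203, and -0.42, adjusted p = 0.0428). The difference between the lines' responses gave 1 member after cyclic loess and 1 with dim genes left out. Leaving out 1 array gave 3 to 10 members in the sorted pair alone, 1 to 5 for KLS cells in BFC012 and 0 to 2 for the difference between responses. Without replicate 1 of both groups grown alone, chosen after seeing the data, KLS cells gave 3 members in AFT024 and 7 in BFC012, and 4 for the difference. Without replicate 1 of AFT024 with KLS cells too, these were 4, 12 and 7, and the sorted pairs gave 15 alone and 15 with KLS cells. Adamts5 with KLS cells in AFT024 reversed in both settings, to -0.655 and -0.676; its replicate 1 grown alone read low. For single members, leaving out 1 array kept the call or its absence in 1183 cases, ended it in 82 and gave one in 13, with 0 reversed. Signal near background limits the dim members, among them Mmp1a, Mmp10, Mmp17, Mmp25 and Adamts16, whose small differences are given above. The cause of the other changes was not tested.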

Other observations

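Proteases and collagen-processing genes outside the families also separated lines. Between 14F1-1 and 2012, 6 of 10 ADAM proteases were higher and 1 lower, beside 18.1% and 18.5% of all genes, with the non-catalytic Adam23 at 5.58 (SE 0.16, adjusted p = 1.07e-24). In the AM lines the procollagen enhancer Pcolce2 was lower in AM14-1C4, a difference of -3.53 (SE 0.26, adjusted p = 2.7e-13). The collagen-cutting cathepsin Ctsk was higher in 2012 than in AFT011 by 2.45 (SE 0.14, adjusted p = 1.79e-15), and Adam19 was lower, a difference of -1.78 (SE 0.17, adjusted p = 2.07e-10).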
